A study of Mus musculus with 20 samples.

Results

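Phase II conjugation enzymes were followed in livers of mice treated with locked nucleic acids (LNA), which are chemically stabilized antisense oligonucleotides, against the small nucleolar RNA SNORA73 or against GFP as control. The members are genes of the UDP-glucuronosyltransferases (UGT, with Ugt1a, Ugt2a, Ugt2b and Ugt3a), the cytosolic sulfotransferases (SULT) and the glutathione S-transferases (GST, with Gsta, Gstm, Gstp, Gstt, Gstk, Gsto and Gstz), chosen by symbol. Members also needed a CPM, the count scaled to the library total, above 0.5 in at least 4 of the 20 libraries. Of 53028 genes in the table, 64 carried such a symbol without being a pseudogene and 45 passed the CPM rule, namely 18 UGT, 7 SULT and 20 GST genes. Just inside the rule were Ugt1a7c, above 0.5 CPM in 5 libraries, and Ugt1a10, in 10 libraries. Just outside were Gsto2, in 2 libraries, and Sult1e1, in 0.

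All animals were male C57BL/6J mice, a wild-type inbred strain, on standard chow, given 3 intraperitoneal injections of 3 mg/kg LNA on alternate days and killed 2 days after the last. Controls were mice 1, 2, 3, 8 and 9 (GFP LNA) and treated animals were mice 4, 6, 10, 11 and 12 (SNORA73 LNA, which the sample labels write as Snora37). The series gives an age of 8 weeks at injection and the methods for liver polysomes give 10 weeks. Those methods also state that cycloheximide, an inhibitor of translation, was injected into the tail vein minutes before death. From each liver 1 library was made from total RNA and 1 from RNA of the polysome fractions of a sucrose gradient, where mRNA is bound by several ribosomes, after selection of polyadenylated RNA. The knockdown itself cannot be read from these libraries, since mature snoRNAs lack a poly(A) tail. Snora73a and Snora73b stood at 0.177 CPM or less in every library.

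Phase II enzymes attach a polar group to drugs, hormones, bilirubin and products of phase I oxidation, so that the conjugate can be excreted in bile or urine. UGT proteins sit in the membrane of the endoplasmic reticulum and transfer glucuronic acid or another sugar, whereas SULT proteins transfer sulfate and the GST proteins counted here transfer glutathione, most of them in the cytosol. The liver is a main site of these reactions, and many of the genes are known targets of the regulators Nrf2, CAR, PXR and AhR.

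The libraries of total RNA held 20005389 to 42023390 counts each, and those of polysome RNA 14852951 to 33824659. The 5 hepatocyte markers (Alb, Apoa1, Ttr, Serpina1c and Cyp2e1) summed to between 38370 and 76030 CPM in every library, and pancreatic markers to at most 0.103 CPM. The study left out 1 unnamed sample per group. All 10 mice were kept here, and counts are also given without mice 9 and 10, an alternative chosen with earlier results of these data known.

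The members together took 1.11% ± 0.113 (SD, n = 5) of all counts in total RNA of GFP LNA livers and 0.966% ± 0.161 in SNORA73 LNA livers. Polysome RNA gave 1.26% ± 0.141 and 1.03% ± 0.159. The families went in opposite directions between the RNAs. UGT genes took 0.379% ± 0.0170 of the counts of total RNA but 0.263% ± 0.0141 of polysome RNA in GFP LNA livers, whereas GST genes took 0.605% ± 0.0884 and 0.897% ± 0.125. Neither pair of ranges overlapped in GFP LNA livers. Both did in SNORA73 LNA livers, with UGT genes at 0.277 to 0.347% of total and 0.185 to 0.286% of polysome counts and GST genes at 0.356 to 0.674% and 0.564 to 0.860%.

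CPM is not corrected for transcript length, so it was not used to rank genes against each other. The members that drew most counts in their subfamilies, as the mean CPM over the 20 libraries, were Gsta3 (1798), Gstm1 (1248), Gstp1 (2123), Gstt1 (173), Gstz1 (603), Sult1a1 (299.5), Sult2a8 (630.0), Ugt1a1 (309.6), Ugt2b5 (717) and Ugt3a2 (191). Gstz1 encodes the maleylacetoacetate isomerase of tyrosine breakdown, and Ugt1a1 the enzyme that glucuronidates bilirubin. Sult1a1 sulfates phenols, and Sult2a8 is a hepatic sulfotransferase that acts on bile acids.

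The clearest difference among the members lay between polysome and total RNA of the same livers, and it followed the families. The question was how far each mRNA was found on polysomes relative to its level in the whole tissue. In GFP LNA livers all 20 GST genes had a higher estimate in polysome than in total RNA, with a median log2 fold change of 0.42, and 15 of 17 tested UGT genes had a lower one, with a median of -0.59. The SULT genes lay on both sides, 2 above and 5 below 0, and the median over all 13283 genes tested was 0.03. Each library is scaled to its own total, so these are relative values, and the RNAs were extracted by different protocols, which cannot be told apart from binding to ribosomes.

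By edgeR's quasi-likelihood test with Benjamini-Hochberg adjustment over all genes, 8 of 44 members were higher in polysome RNA at an adjusted p under 0.05 in GFP LNA livers, all of them GST genes, against 24.7% of all genes. A further 11 were lower, 9 UGT and 2 SULT genes, against 24.0% of all genes. As shares of the members, 18.2% and 25.0%, these counts of the test without a block lay near or below the background, and the direction divided by family. With the mouse as a replicate block, 21 members were higher (47.7%, against 32.3% of all genes), namely 18 GST, 2 SULT and 1 UGT genes. The same fit called 17 lower (38.6%, against 30.7%), 14 UGT and 3 SULT genes. Both shares lay above the background. Without mouse 3 the test without a block called 5 members higher and 2742 of all genes, against 3283 of all genes with all mice.

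In SNORA73 LNA livers the test without the block called 3 members higher (6.82%, background 17.2%) and 10 lower (22.7%, background 15.8%). With the block it called 10 higher (22.7%, background 24.0%) and 15 lower (34.1%, background 22.3%). The 3 higher ones were Gstp1, Gstp3 and Sult5a1, and the lower ones comprised 8 UGT genes, Sult1d1 and Sult2a8. Of the GST genes 17 of 20 lay above 0, with a median of 0.30, and 15 of 17 UGT genes lay below 0, with a median of -0.77. Without mouse 9 the blocked counts in GFP LNA livers were 18 higher and 16 lower, beside 3836 and 3630 of all genes. Without mouse 10 those in SNORA73 LNA livers were 6 higher and 12 lower, beside 2378 and 2307 of all genes. With all mice the blocked fits called 4288 and 4075 of all genes in GFP LNA and 3131 and 2907 in SNORA73 LNA livers.

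Markers of other cells differed in summed level between the RNAs. In GFP LNA livers the 3 erythroid markers (Hba-a1, Hbb-bs and Alas2) summed to 288 to 554 CPM in total and 503 to 867 CPM in polysome RNA. The 5 stellate cell markers (Lrat, Reln, Dcn, Col1a1 and Des) summed to 209 to 266 CPM and 119 to 179.9 CPM, without overlap, and 0 of either list was at 0 in every library. Their part in the values of the members was not tested.

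**Figure D1:**
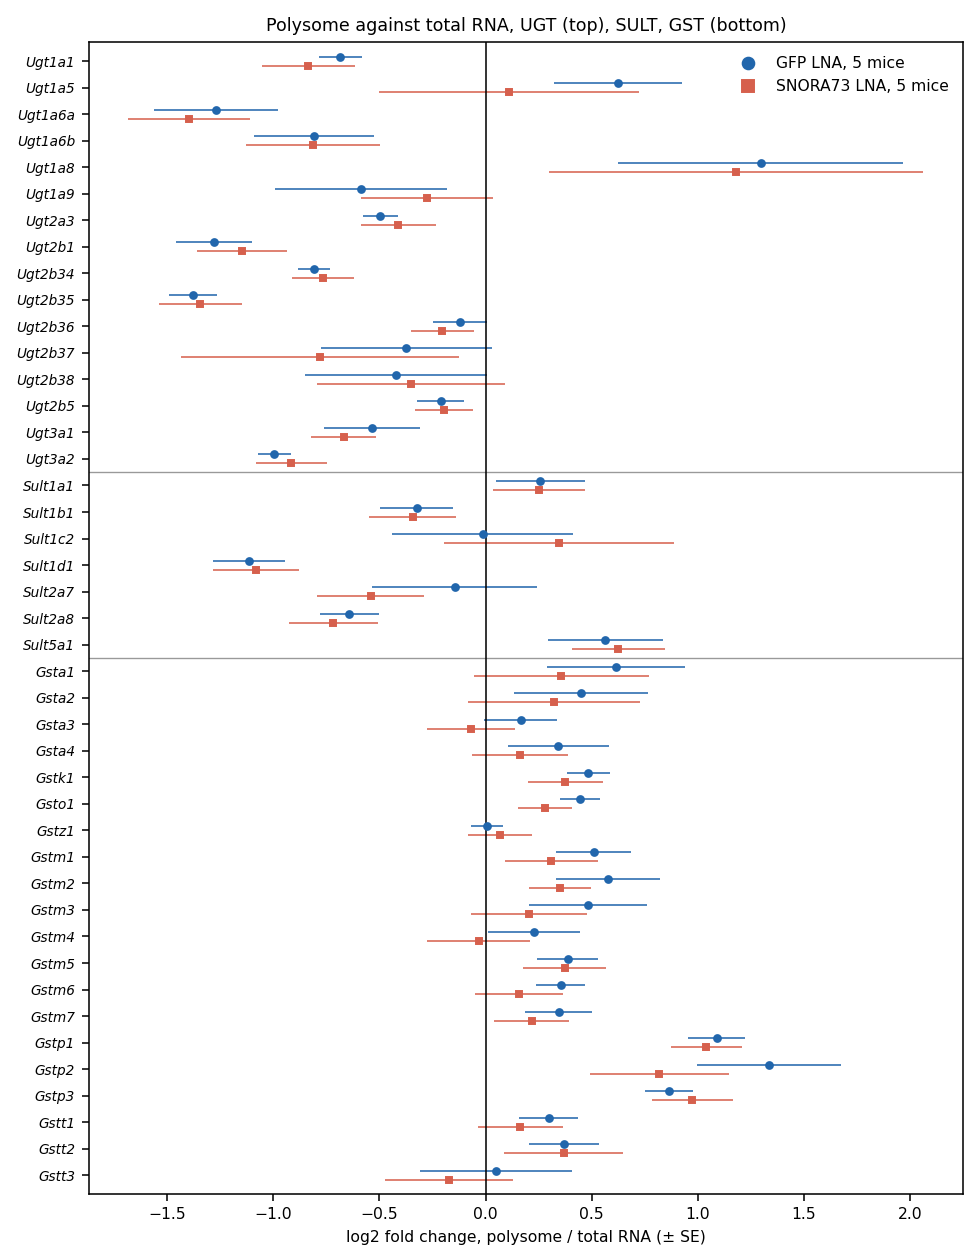
Log2 fold change of polysome over total RNA (x axis) for 43 members (y axis), with standard errors, in GFP LNA livers (circles) and SNORA73 LNA livers (squares). All GST estimates of GFP LNA livers lie to the right of 0, with the 3 Gstp genes farthest among them at 0.86 to 1.34, and most UGT estimates lie to the left, with Ugt2b35 at -1.38. Ugt1a10, at 0 in most polysome libraries, and Ugt1a7c, which was not tested, are not drawn.

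The 3 Gstp genes of chromosome 19, the pi class, had the highest GST estimates. Gstp1 stood at 1179, 1234, 1627, 1087 and 1307 CPM in total RNA of GFP LNA mice 1, 2, 3, 8 and 9, and at 2266, 2270, 3053, 2871 and 3158 CPM in their polysome RNA. The groups did not overlap, and every mouse was higher in polysome RNA. The log2 fold change was 1.09 ± 0.13 (SE, adjusted p = 3.71e-05). In SNORA73 LNA livers Gstp1 was at 1135 to 1739 CPM in total and 2464 to 3861 CPM in polysome RNA, a log2 fold change of 1.04 ± 0.17 (adjusted p = 0.000704).

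Gstp2 and Gstp3, paralogs of low count beside Gstp1, differed in the same direction. In GFP LNA livers Gstp2 reached 1.34 ± 0.34 (adjusted p = 0.00617), and it had a log2 fold change of 0.82 ± 0.33 in SNORA73 LNA livers, where the test without the block did not pass (adjusted p = 0.0726) and the block did (adjusted p = 0.000168). Without mouse 10 it passed without the block too (adjusted p = 0.0133). Gstp3 reached 0.86 ± 0.12 (adjusted p = 7.01e-05) and 0.97 ± 0.19 (adjusted p = 0.00246). Reads that fit several paralogs were divided among them by estimation, so the split of these 3 genes is uncertain. Their summed counts gave 1.09 ± 0.13 (adjusted p = 3.65e-05) in GFP LNA livers and 1.04 ± 0.17 (adjusted p = 0.000684) in SNORA73 LNA livers.

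The upstream sequences of Gstp1 and Gstp2 are shown because these neighbours had the highest polysome estimates among the GST genes while their counts differ widely. Those of Gsta1, Gsta2 and Gsta3 are shown because Gsta1 had the lowest estimate under the SNORA73 LNA, described later. Each run is the 250 bases before the start site used in the RefSeq promoter table, GRCm38.p6, 5′ to 3′ on the strand of the gene. For Gsta2 and Gsta3 that site lies inside the annotated gene, so the end of the run overlaps it. RefSeq promoter entries were found for 40 of the 45 members. Capitals mark matches on either strand to the core of the antioxidant response element (TGACNNNGC), the AP-1 site (TGAGTCA), the core of the xenobiotic response element (GCGTG) or a TATA box (TATAAA).
Gstp1, chr19:4037913-4038162, minus strand: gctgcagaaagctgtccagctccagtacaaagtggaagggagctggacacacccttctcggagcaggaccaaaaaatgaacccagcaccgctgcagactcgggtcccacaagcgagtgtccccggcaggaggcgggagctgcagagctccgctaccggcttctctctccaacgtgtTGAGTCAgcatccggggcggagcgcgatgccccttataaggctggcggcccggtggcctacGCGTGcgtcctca
Gstp2, chr19:4042222-4042471, minus strand: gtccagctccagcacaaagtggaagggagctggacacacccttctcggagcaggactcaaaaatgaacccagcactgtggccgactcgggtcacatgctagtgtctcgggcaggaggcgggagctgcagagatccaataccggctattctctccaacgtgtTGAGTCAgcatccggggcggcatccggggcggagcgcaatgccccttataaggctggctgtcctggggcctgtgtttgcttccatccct
Gsta1, chr9:78230419-78230668, plus strand: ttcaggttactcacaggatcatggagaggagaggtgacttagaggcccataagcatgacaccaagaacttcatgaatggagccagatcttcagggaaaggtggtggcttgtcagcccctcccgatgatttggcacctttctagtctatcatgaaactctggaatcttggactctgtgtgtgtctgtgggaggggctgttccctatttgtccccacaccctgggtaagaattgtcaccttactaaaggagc
Gsta2, chr9:78347146-78347395, minus strand: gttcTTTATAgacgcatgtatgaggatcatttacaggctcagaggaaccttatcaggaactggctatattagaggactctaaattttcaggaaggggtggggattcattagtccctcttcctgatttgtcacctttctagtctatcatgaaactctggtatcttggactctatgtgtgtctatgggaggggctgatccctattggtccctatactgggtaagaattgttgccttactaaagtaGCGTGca
Gsta3, chr1:21240335-21240584, plus strand: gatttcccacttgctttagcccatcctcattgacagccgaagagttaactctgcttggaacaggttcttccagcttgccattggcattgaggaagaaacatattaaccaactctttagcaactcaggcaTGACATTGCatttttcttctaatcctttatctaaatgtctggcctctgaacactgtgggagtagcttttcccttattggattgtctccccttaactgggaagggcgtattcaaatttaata

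The upstream runs of Gstp1 and Gstp2 were identical at 207 of 265 aligned positions (78.1%), and those of Gsta1 and Gsta2 at 184 of 261 (70.5%). Gsta1 and Gsta3 were identical at 50.7%. The AP-1 letters begin 74 bases before the start of Gstp1 and 89 bases before that of Gstp2. They occurred in 4 of 40 members, the others being Gstm5 and Ugt2b37, and in 4.46% of 32851 promoters. The antioxidant response element core occurred in 3 of 40 members (Gsta3, Gstm5 and Gstm7) and in 10.2% of all promoters, the xenobiotic response element core in 9 members and 28.2% of promoters, and the TATA box in 5 members and 12.4% of promoters. A match describes the letters and shows no binding.

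Among the other GST genes, Gstm1 had 1030 to 1633 CPM in total RNA and 1358 to 2497 CPM in polysome RNA of GFP LNA livers, and each of the 10 mice of the study had more in polysome RNA. Its log2 fold change was 0.51 ± 0.18 (adjusted p = 0.0307), a call lost without mouse 3, 8 or 9 (adjusted p = 0.0733, 0.0832 and 0.0650). Gstk1, the kappa class GST of mitochondria and peroxisomes, reached 0.48 ± 0.10 (adjusted p = 0.00172) and Gsto1, of the omega class, 0.45 ± 0.10 (adjusted p = 0.00227). In SNORA73 LNA livers Gstm1 and Gstk1 passed with the block (0.32 ± 0.09 (adjusted p = 0.0182) and 0.38 ± 0.12 (adjusted p = 0.0258)) but not without it (adjusted p = 0.303 and 0.120). Gstz1 stood at 598 ± 39.1 CPM in total and 598 ± 26.0 CPM in polysome RNA (SD, n = 5), with a log2 fold change of 0.01 ± 0.08. Over both groups, 9 of 20 GST genes were higher in polysome RNA in all 10 mice and 0 were lower in all 10, against 20.3% and 20.7% of 12736 genes.

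UGT genes lay on the other side. Ugt2b35 had 204, 212, 211, 172 and 169.6 CPM in total RNA of GFP LNA mice 1, 2, 3, 8 and 9 and 82.9, 80.3, 79.5, 67.8 and 59.3 CPM in polysome RNA. The groups were far apart, at a log2 fold change of -1.38 ± 0.11 (adjusted p = 2.04e-06), with -1.34 ± 0.19 (adjusted p = 0.000414) in SNORA73 LNA livers. Ugt2b1 gave -1.28 ± 0.18 (adjusted p = 9.73e-05) and Ugt1a6a, a phenol-conjugating enzyme of the Ugt1a locus, -1.27 ± 0.29 (adjusted p = 0.00341). Ugt3a2, of a subfamily that uses sugars other than glucuronic acid, gave -0.995 ± 0.08 (adjusted p = 1.35e-06). In all, 10 of 16 UGT genes were lower in polysome RNA in every one of the 10 mice (against 20.7% of all genes), among them 6 of 8 Ugt2 genes. In every mouse 0 were higher (against 20.3%). Above 0 in GFP LNA livers were Ugt1a8 (1.30 ± 0.67, adjusted p = 0.131) and Ugt1a5 (0.62 ± 0.30, adjusted p = 0.105), each higher in 7 of the 10 mice. Ugt1a5 passed with the block (adjusted p = 0.0176).

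The SULT genes did not move together. Sult1d1, which sulfates catecholamines and other small phenols, had 83.5 to 128 CPM in total and 37.8 to 62.4 CPM in polysome RNA of GFP LNA livers, a log2 fold change of -1.11 ± 0.17 (adjusted p = 0.000196). Sult2a8 was lower as well, at -0.64 ± 0.14 (adjusted p = 0.00210). Sult5a1 and Sult1a1 had more CPM in polysome RNA in all 10 mice. Their log2 fold changes in GFP LNA livers were 0.56 ± 0.27 (adjusted p = 0.105) and 0.26 ± 0.21 (adjusted p = 0.325), and both passed with the block (adjusted p = 0.000829 and 0.00160).

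The division by family was visible in each animal. The median of log2 polysome over total RNA for the 20 GST genes ranged from 0.0912 in mouse 6 to 0.593 in mouse 9. For 16 UGT genes it ranged from -1.11 in mouse 12 to -0.405 in mouse 9, and over all genes from -0.0480 to 0.0629. The ranges of UGT and GST genes did not overlap over the 10 mice. Another scaling factor of a library shifts both families alike.

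The next comparison asked whether the SNORA73 LNA altered the members. No member passed an adjusted p of 0.05 in total RNA (0 of 44, against 4 of 13195 genes, 0.0303%) or in polysome RNA (0 of 43, against 2 of 13060 genes, 0.0153%) by edgeR's test. In total RNA 3 members were lower at an unadjusted p under 0.05 (6.82% of members, against 3.69% of all genes) and 0 were higher (against 4.96%). In polysome RNA 8 were lower (18.6%, against 5.32%) and 0 were higher (against 8.12%). The 8 were Gsta1, Gstm1, Gstm3, Gstm4, Gstm6, Gstm7, Sult1b1 and Ugt1a1. Without mice 9 and 10 there were 4 lower and 1 higher in total RNA (against 5.05% and 7.04% of all genes), and 9 lower and 2 higher in polysome RNA (against 4.95% and 9.04%). The number of lower members depended on single animals, with 7 in total RNA without mouse 9 (against 4.42% of all genes) but 1 without mouse 2, 8, 10 or 11 (against 3.22% to 4.37%), and 4 in polysome RNA without mouse 2 (against 3.74%) and 5 without mouse 10 (against 4.67%).

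The RNAs come from the same livers, so their comparisons are not independent of each other. Over the 20 GST genes the median log2 fold change was 0.00 in total and -0.20 in polysome RNA, beside 0.01 and -0.01 over all genes. In polysome RNA 15 of 20 GST genes lay below 0, including all 4 Gsta and all 7 Gstm genes, while the 3 Gstp genes lay above 0. Scaling to library totals instead of TMM moved the median of all genes to -0.14 in total and -0.17 in polysome RNA, and the GST medians to -0.14 and -0.36. With library totals 7 members were lower at an unadjusted p under 0.05 in total RNA (14.3% of all genes) and 14 in polysome RNA (13.8% of all genes).

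Gsta1, an alpha class GST, had the lowest estimate. It stood at 11.5, 27.7, 7.85, 16.95 and 13.2 CPM in total RNA of GFP LNA mice 1, 2, 3, 8 and 9, and at 7.16, 16.7, 3.99, 5.19 and 4.84 CPM in SNORA73 LNA mice 4, 6, 10, 11 and 12. In polysome RNA the values were 19.6, 30.9, 12.6, 31.7 and 23.4 CPM against 10.2, 17.4, 8.27, 7.99 and 3.90 CPM. Mouse 6 was the highest treated animal in both RNAs and lay within the range of the controls. The log2 fold change was -0.99 ± 0.40 (adjusted p = 0.509) in total RNA and -1.28 ± 0.33 (adjusted p = 0.154) in polysome RNA. In polysome RNA DESeq2 called Gsta1 lower (adjusted p = 0.00968) together with Gstm4 (adjusted p = 0.0409), 2 of 43 members against 0.426% of all genes. Gsta1 also passed in polysome RNA with no filter beyond 1 count (adjusted p = 0.0352) and in a single fit of 20 libraries with the mouse as a block (adjusted p = 0.04996). These settings called 6 and 67 of all genes lower and 66 and 245 higher, where the main test called 0 lower and 2 higher. The single fit without the block called 0 members, beside 75 of all genes lower and 242 higher. Summed with its paralog Gsta2, with which reads can be shared, the log2 fold change was -0.44 ± 0.37 (adjusted p = 0.796) in total and -0.62 ± 0.31 (adjusted p = 0.414) in polysome RNA.

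**Figure D2:**
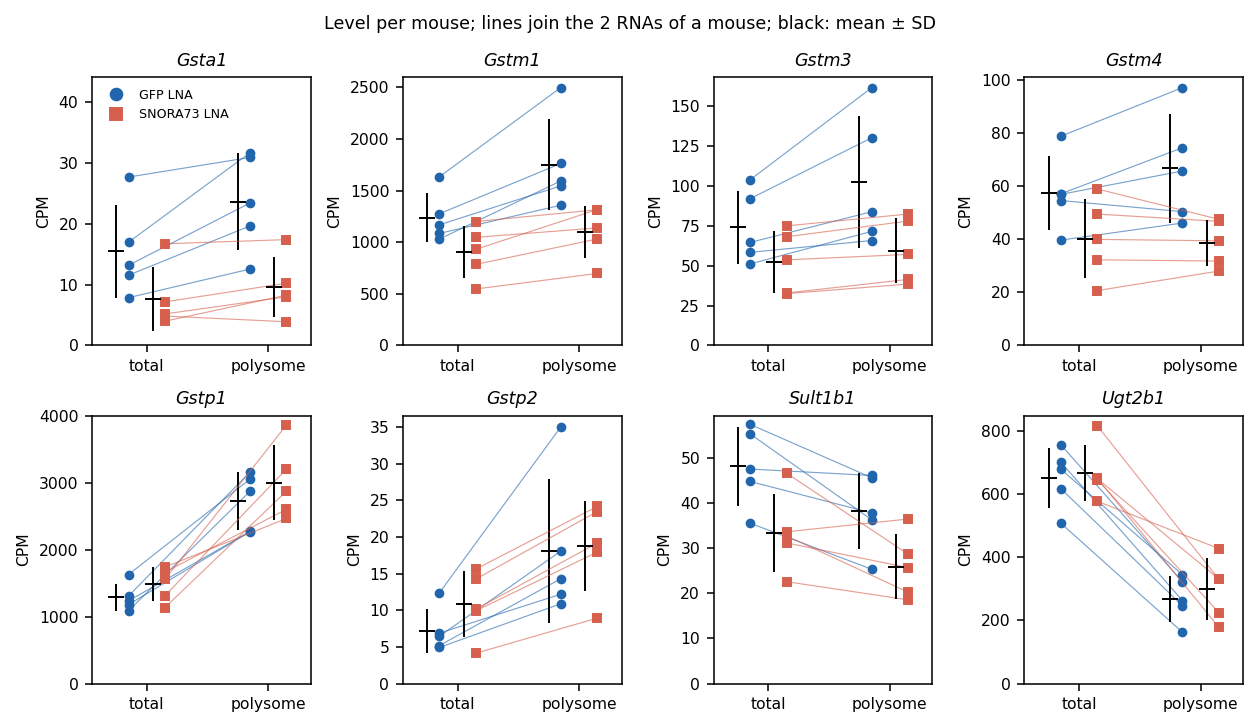
CPM (y axis) of 8 members in total and polysome RNA, 1 point per library, with lines joining the RNAs of a mouse and black marks for mean ± SD (n = 5). Gstm1 in polysome RNA separates the groups, at 697 to 1316 CPM under the SNORA73 LNA and 1358 to 2497 CPM under the GFP LNA, whereas Gsta1, Gstm3, Gstm4 and Sult1b1 overlap. All mice have more Gstp1 and less Ugt2b1 in polysome RNA than in total RNA.

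Of the mu class genes, which lie side by side on chromosome 3, Gstm1 was the member whose groups did not overlap in polysome RNA. It stood at 1358, 2497, 1545, 1762 and 1593 CPM in GFP LNA mice 1, 2, 3, 8 and 9, and at 1138, 1314, 697, 1031 and 1316 CPM in SNORA73 LNA mice 4, 6, 10, 11 and 12. The highest treated value, in mouse 12, lay just below the lowest control value, in mouse 1. This was 1 of 43 members, against 1.48% of genes lower without overlap, and 0 members were higher without overlap (against 1.72%). In total RNA 0 of 44 members were without overlap in either direction (against 0.985% higher and 0.864% lower). The log2 fold change of Gstm1 was -0.65 ± 0.21 (adjusted p = 0.221) in polysome RNA and -0.43 ± 0.19 (adjusted p = 0.541) in total RNA.

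Gstm4 and Gstm3 had log2 fold changes of -0.77 ± 0.22 (adjusted p = 0.185) and -0.77 ± 0.29 (adjusted p = 0.277) in polysome RNA, and of -0.49 ± 0.24 (adjusted p = 0.608) and -0.48 ± 0.25 (adjusted p = 0.656) in total RNA. Gstm4 stood at 46.2 to 97.2 CPM in polysome RNA of GFP LNA livers and 28.1 to 47.6 CPM in SNORA73 LNA livers, where mouse 9 was the control that fell into the treated range. Gstm5 of the same cluster had a log2 fold change of -0.03 ± 0.20 in polysome RNA. Reads can be shared among these paralogs as well.

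Sult1b1, a sulfotransferase of thyroid hormones and phenols, had the lowest p in total RNA. It stood at 35.5 to 57.4 CPM in GFP LNA livers and 22.6 to 46.6 CPM in SNORA73 LNA livers, where mouse 12 was the highest. The log2 fold changes were -0.51 ± 0.17 (adjusted p = 0.397) in total RNA and -0.54 ± 0.20 (adjusted p = 0.280) in polysome RNA. Ugt1a1 had -0.23 ± 0.17 (adjusted p = 0.766) and -0.40 ± 0.17 (adjusted p = 0.341).

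Above 0 the lowest p in total RNA belonged to Gstp2, with 4.93, 6.89, 5.19, 6.45 and 12.4 CPM in GFP LNA mice 1, 2, 3, 8 and 9 and 15.6, 9.92, 4.14, 14.3 and 10.2 CPM in SNORA73 LNA mice 4, 6, 10, 11 and 12. Mouse 9 was the highest control and mouse 10 the lowest treated animal, and the log2 fold change over all mice was 0.61 ± 0.33 (adjusted p = 0.661). Without these mice it was 1.12 ± 0.18 (adjusted p = 0.0249), the 1 member of 44 then called higher (2.27%, against 0.584% of all genes). In polysome RNA Gstp2 had 0.09 ± 0.33 over all mice and 0.65 ± 0.19 (adjusted p = 0.174) without mice 9 and 10. In total and polysome RNA Gstp1 had 0.23 ± 0.14 and 0.17 ± 0.16, Sult5a1 0.36 ± 0.24 and 0.41 ± 0.25, Ugt2b38 0.57 ± 0.44 and 0.63 ± 0.43, and Ugt2a3 0.08 ± 0.13 and 0.15 ± 0.14. None of these passed the test.

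**Figure D3:**
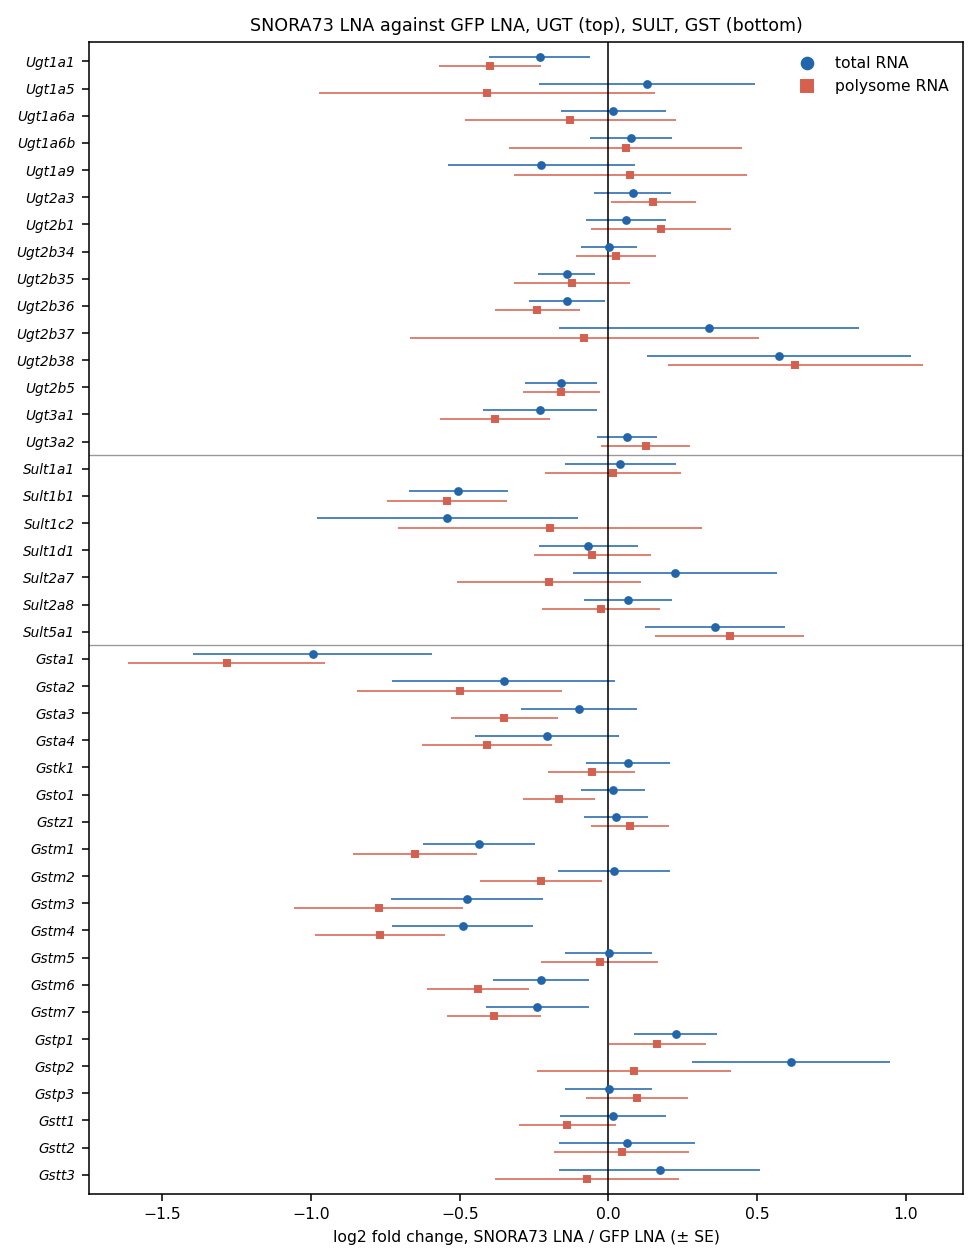
Log2 fold change of SNORA73 LNA over GFP LNA livers (x axis) for 42 members (y axis), with standard errors, in total RNA and polysome RNA. No member passed the adjusted test. Gsta1 lies farthest below 0, at -0.99 and -1.28, and the 7 Gstm genes lie below 0 in polysome RNA. Ugt1a8, Ugt1a10 and Ugt1a7c, of the locus with shared exons, are not drawn.

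Other cell types of the liver were followed by their markers. The summed level of 5 endothelial markers (Pecam1, Stab2, Clec4g, Lyve1 and Kdr) was 82.1 to 98.7 CPM in GFP LNA and 92.4 to 107 CPM in SNORA73 LNA livers in total RNA, and 72.0 to 83.4 against 85.3 to 98.9 CPM in polysome RNA, where the groups did not overlap. Of the 5, 0 were at 0. Stab2, a scavenger receptor of sinusoidal endothelium, was higher in total RNA, by a log2 fold change of 1.06 ± 0.15 (adjusted p = 0.0498). The summed markers of hepatocytes, pericentral and periportal hepatocytes, cholangiocytes, Kupffer cells, stellate cells, neutrophils, lymphocytes and red cells overlapped between the groups in both RNAs. The part of cell composition in the values of the members was not tested, and in whole liver fewer cells of a type and less RNA per cell cannot be told apart.

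Whether the LNA altered polysome RNA beyond total RNA was asked with an interaction term over all 20 libraries. No member passed (0 of 45, against 1 of 13795 genes, 0.00725%), and at an unadjusted p under 0.05 there were 0 members higher (against 2.04%) and 0 lower (against 0.870%). Of the GST genes 18 of 20 estimates lay below 0, with a median of -0.19, beside -0.01 over all genes. With the mouse as a block 4 members were lower at an unadjusted p under 0.05 (8.89%, against 3.02%), and without mice 9 and 10 the blocked count was 1 of 45 (against 2.12% of all genes). The 4 were Gstp2 (-0.45 ± 0.14), Gsta3 (-0.25 ± 0.09), Gstm6 (-0.20 ± 0.09) and Gstm3 (-0.24 ± 0.11), with adjusted p = 0.480 to 0.615. Without the block Gstp2 had -0.53 ± 0.51 and Gsto1 -0.18 ± 0.15, and above 0 the lowest p belonged to Ugt1a9 (0.29 ± 0.55), Sult1c2 (0.35 ± 0.74) and Gstp3 (0.10 ± 0.22), each with an adjusted p of 0.9999.

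The Ugt1a genes lie in 1 locus on chromosome 1 (GRCm38.p6) in which each has its own first exon and all share the exons that follow. Their annotated starts run from 88055411 (Ugt1a10) to 88211959 (Ugt1a1), and 6 of 8 members end at 88220002. Reads in the shared exons fit every gene of the locus, so single values depend on how the counts were divided. Ugt1a8 stood at 18.4, 2.36, 16.0, 25.4 and 36.1 CPM in total RNA of GFP LNA mice 1, 2, 3, 8 and 9 and at 27.6, 2.93, 33.4, 145 and 1.48 CPM in SNORA73 LNA mice 4, 6, 10, 11 and 12. Its log2 fold change under the SNORA73 LNA was 1.14 ± 0.97 in total RNA, which turned to -0.25 without mouse 11, and 1.014 ± 0.54 in polysome RNA. Ugt1a10 was at 0 in 4 of 5 polysome libraries of GFP LNA livers and in 5 of 5 of SNORA73 LNA livers, against 13.0 ± 9.72 and 7.48 ± 5.17 CPM in total RNA. It was among the UGT genes called lower in polysome RNA of GFP LNA livers, a call lost without mouse 1, 2, 3 or 9 (adjusted p = 0.0599 to 0.128) and with DESeq2 (adjusted p = 0.207). Its call in SNORA73 LNA livers was lost with limma-voom (adjusted p = 0.111). Ugt1a10 was at 0 in total RNA of mouse 10 as well. Against a floor of 3 counts per library, its mean was at least 45.9-fold lower in polysome than in total RNA of SNORA73 LNA livers. This bound takes the division of reads within the locus as given.

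Counts summed over the locus do not depend on how reads were divided within it. The sum was 661 to 831 CPM in total and 448 to 585 CPM in polysome RNA of GFP LNA livers. In SNORA73 LNA livers it was 484 to 892 CPM and 360.2 to 577 CPM. Polysome against total RNA gave a log2 fold change of -0.55 ± 0.11 (adjusted p = 0.00123) in GFP LNA livers and -0.50 ± 0.17 (adjusted p = 0.0423) in SNORA73 LNA livers. For the SNORA73 LNA the sum had -0.11 ± 0.14 (adjusted p = 0.888) in total and -0.07 ± 0.15 (adjusted p = 0.871) in polysome RNA. Ugt1a7c, at most 0.916 CPM, entered only the interaction fit.

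**Figure D4:**
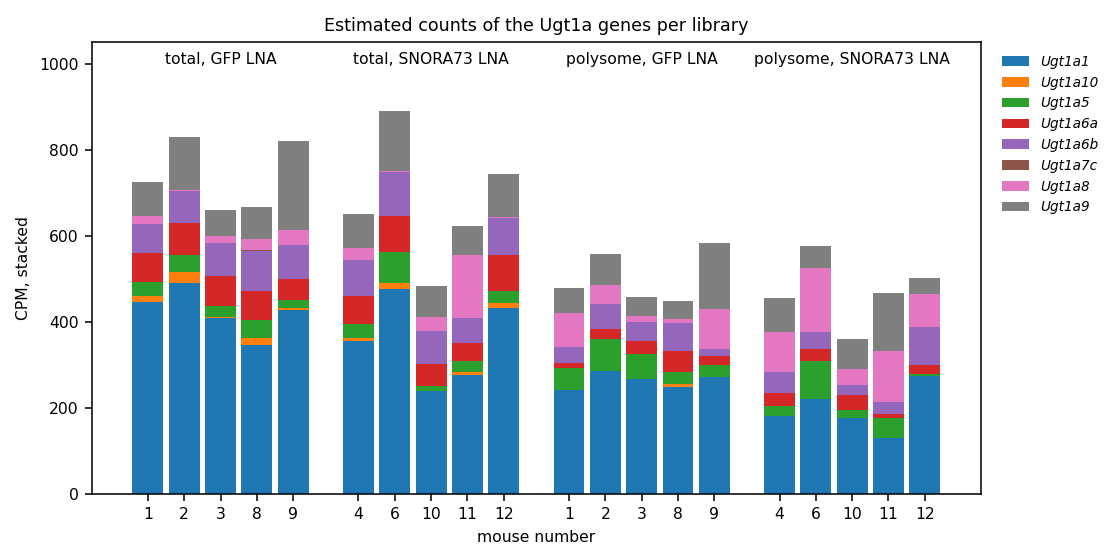
CPM (y axis, stacked) of the 8 Ugt1a members in each library (x axis, mouse number), by RNA and LNA. The height of the stack runs from 360.2 to 892 CPM, while Ugt1a8 runs from 1.48 to 150.3 CPM.

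The spread between animals of a group was described without a test. The median within-group SD of log2 CPM was 0.355 over the members and 0.245 over all genes in total RNA, and 0.358 and 0.333 in polysome RNA. The largest SDs in total RNA belonged to Ugt1a10 (2.29), Ugt1a8 (2.18), Ugt1a7c (1.007), Sult1c2 (0.92) and Ugt2b38 (0.86). Sult1c2 ranged from 0.641 CPM in mouse 10 to 8.71 CPM in mouse 9 in total RNA, and from 0.536 to 9.75 CPM in the same animals in polysome RNA. Ugt2b38 ranged from 5.06 CPM in mouse 2 to 43.2 CPM in mouse 10, and from 2.80 to 33.7 CPM in polysome RNA of these mice.

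These deviations recurred in both RNAs of a mouse. For 43 members the median correlation over 10 mice between the deviation from the group mean in total and in polysome RNA was 0.826, beside 0.470 over 12736 genes. The libraries of a mouse share their liver, and the correlation is a description without a test. It was 0.954 for Sult1c2, 0.980 for Ugt2b38 and -0.0673 for Ugt1a8.

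Mouse 2, a control, had the highest total RNA value of all 10 mice in 21 of 45 members, among them 11 of 20 GST genes. Mouse 10, treated, had the lowest in 26 of 45 members, among them 16 GST genes, and in polysome RNA in 20, among them 12 GST genes. The median deviation of the GST genes from their mean over the 10 mice was -0.70 in total RNA of mouse 10 and 0.46 in that of mouse 2 on the log2 scale. Mouse 6, treated as well, stood at 0.36. Over all 12736 genes the medians in total RNA were -0.04 in mouse 10, 0.03 in mouse 2 and 0.02 in mouse 6.

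**Figure D5:**
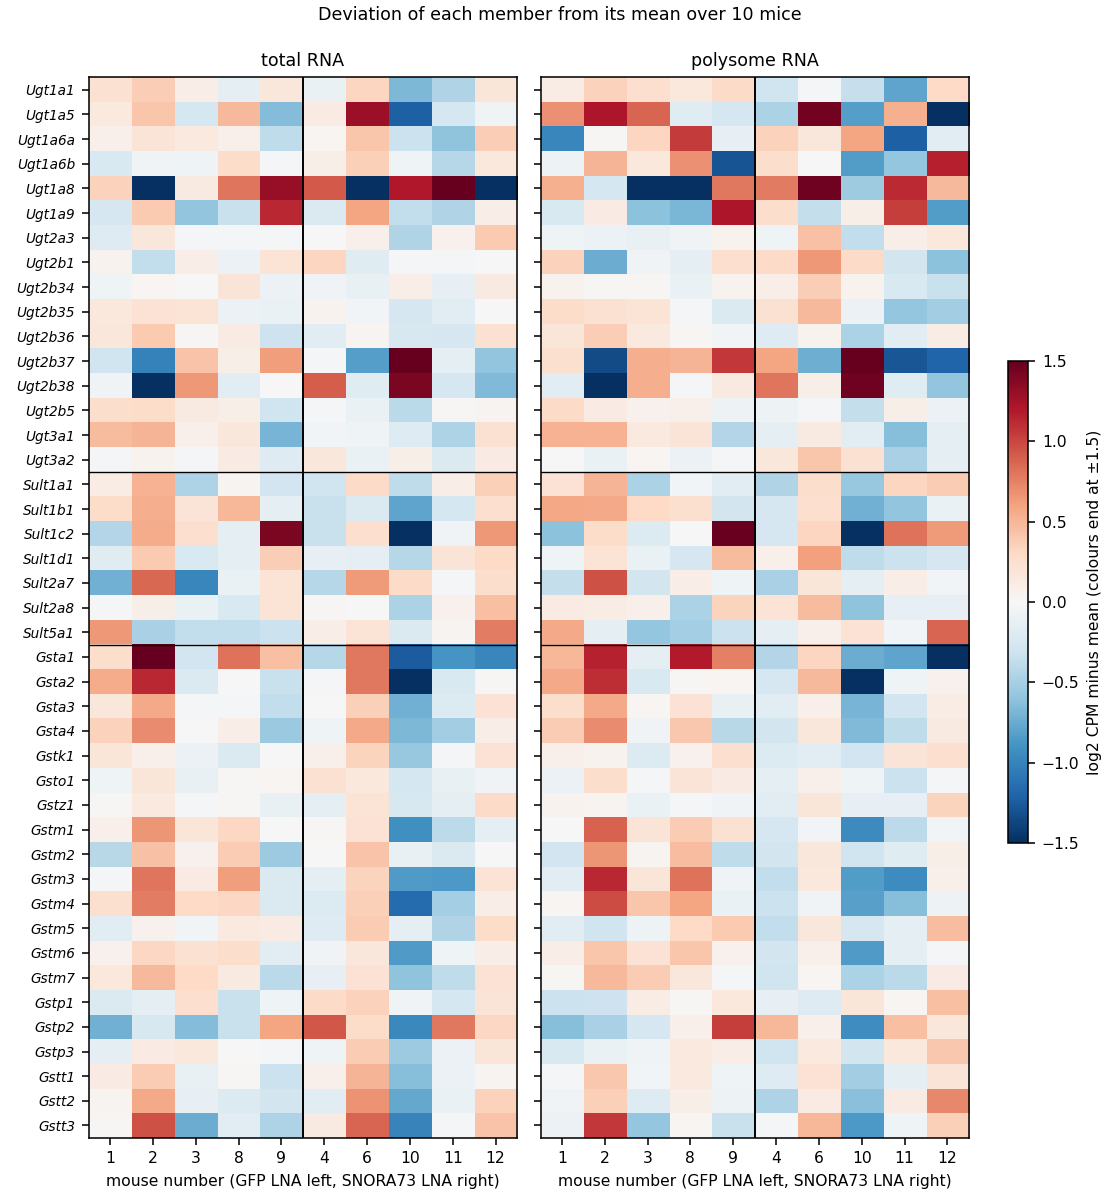
Deviation of log2 CPM of 43 members (rows) from their mean over the 10 mice, for each mouse (columns), in total RNA and polysome RNA, with the colours ending at 1.5 in either direction. Mouse 2 lies above and mouse 10 below the mean over most GST rows in both RNAs, with medians of 0.46 and -0.70 in total RNA.

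The genes around these enzymes were followed as lists. By edgeR's test 0 genes passed for the SNORA73 LNA in either RNA among those that supply UDP-glucuronic acid (5 tested), the sulfate donor PAPS (6) or glutathione (11), in other conjugation (17), deconjugation (5), export and uptake of conjugates (9), among regulators (14) and their targets (11), among 5 membrane-bound or related GST genes and among 8 sex-biased liver genes. Gclc, the catalytic subunit of the rate-limiting enzyme of glutathione synthesis, had log2 fold changes of -0.55 ± 0.15 (adjusted p = 0.357) in total and -0.53 ± 0.22 (adjusted p = 0.335) in polysome RNA. Nqo1, a quinone reductase under Nrf2, had -0.52 ± 0.29 (adjusted p = 0.672) and -0.73 ± 0.24 (adjusted p = 0.238). These were chosen after their values were seen. Other genes of the lists lay farther below 0, nearer to 0 or above it. Cyp4a14 had -1.18 ± 0.81 and -1.21 ± 0.77, and Chac1 -0.32 ± 0.37 and -0.87 ± 0.53. Gclm had -0.13 ± 0.12 and -0.15 ± 0.17. Nnmt, which methylates nicotinamide, had 1.12 ± 0.30 (adjusted p = 0.327) and 1.17 ± 0.38 (adjusted p = 0.230), and Cyp17a1 of the sex-biased genes 1.67 ± 0.29 (adjusted p = 0.171) and 1.82 ± 0.38 (adjusted p = 0.0913). Cyp2b10, a CAR target, had 0.50 ± 0.54 and 0.24 ± 0.50, Cyp3a11, a PXR target, -0.27 ± 0.17 and -0.31 ± 0.24, and Cyp1a2, an AhR target, -0.04 ± 0.12 and -0.05 ± 0.16.

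Between polysome and total RNA of GFP LNA livers the supply genes lay on both sides of 0. The counts called in these lists stand beside 24.7% of all genes higher and 24.0% lower. Of 6 PAPS genes 4 were lower, the synthases Papss1 (log2 fold change -0.68) and Papss2 (-0.70), the Golgi transporter Slc35b3 (-0.70) and the phosphatase Bpnt1 (-0.42), and the transporter Slc35b2 was higher (0.45). Under the SNORA73 LNA 4 of the 6 were lower and 0 higher, with Slc35b2 at 0.04 ± 0.12 (adjusted p = 0.827). For UDP-glucuronic acid Ugdh, which makes it, was lower (-0.75), as was Slc35d1 (-0.47), and Slc35b1 was higher (0.42). Of 11 glutathione genes the synthesis genes Gclc (-0.94) and Gclm (-0.73), the reductase Gsr (-0.54) and Chac2 (-0.88) were lower. The peroxidases Gpx1 (1.09) and Gpx4 (1.24) and Ggct (0.47) were higher.

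Of 9 transporters of conjugates 5 were lower and 0 higher, the exporters Abcc2 (-0.30) and Abcc4 (-1.02) and the uptake carriers Slco1a1 (-0.82), Slco1a4 (-1.02) and Slco1b2 (-0.70). Of the 9, 1 was called lower in SNORA73 LNA livers, Slco1a1 (-0.68 ± 0.20). Abcc2 (-0.42 ± 0.17, adjusted p = 0.0728) and Abcc4 (-0.96 ± 0.42, adjusted p = 0.0994) did not pass. Neither did Slco1a4 (-1.04 ± 0.52, adjusted p = 0.144) nor Slco1b2 (-0.44 ± 0.18, adjusted p = 0.0830). In the interaction each of these 5 genes had an adjusted p of 0.9999. Among 17 other conjugation genes the methyltransferases Nnmt (0.80), Gnmt (0.55) and Gamt (0.96) were higher, as were Nat8 (0.77) and Glyat (0.26), and Nat2 (-0.63), Gm4952 (-0.61) and Acsm3 (-0.73) were lower. Among 5 deconjugation genes the sulfatase Arsb was lower (-0.50). Among the regulators Ahr (-1.92), its partner Arnt (-0.74) and Nfe2l2, which encodes Nrf2 (-0.57), were lower, and Keap1 (0.30) and Rxra (0.47) were higher. Of the targets Txnrd1 (-0.62) and Cyp3a11 (-0.40) were lower and Srxn1 (0.37) was higher, and of 9 sex-biased genes Cyp2d9 was higher (0.56).

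Of the GST-related genes outside the member classes, Mgst3, which sits in membranes, was higher by 0.68 ± 0.26 (adjusted p = 0.0476). Mgst1, the abundant microsomal GST, had -0.08 ± 0.12 (adjusted p = 0.631). Gstcd (-1.03) and Clic4 (-0.52) were lower. The other lists had in SNORA73 LNA livers, called higher and lower, 1 and 1 of 5 UDP-glucuronic acid genes, 3 and 4 of 11 glutathione genes, 0 and 1 of 5 GST-related genes, 3 and 1 of 17 other conjugation genes, 0 and 1 of 5 deconjugation genes, 3 and 3 of 14 regulators, 0 and 1 of 11 targets and 0 and 0 of 8 sex-biased genes, beside 17.2% and 15.8% of all genes.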

How the data were processed

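The values used are estimated counts (also called expected counts) per Ensembl gene, which the authors deposited after trimming 100 bp paired reads with fastp, removing rRNA reads, quantifying with kallisto and summing transcripts to genes. All 20 columns were assigned by their labels, 0 were left over, and 85.7% of values were whole within 1e-06. Counts were rounded. Symbols were found for 51903 of 53028 identifiers, and rows without one held at most 2.99% of counts. Where a read fits several genes its count is shared out by estimation, which touches paralogs and the Ugt1a locus. Positions and promoters are RefSeq, GRCm38.p6.

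Genes above 0.5 CPM in at least 4 libraries of a fit were tested with edgeR 4.0.16 (glmQLFit and glmQLFTest, TMM) in R 4.3.3, in 10 libraries per comparison and 20 for the interaction. Alternatives were limma-voom (limma 3.58.1, the kind of test the authors used), DESeq2 1.42.0, its size factors in edgeR, library totals, other filters, a single fit of 20 libraries, mice left out and the mouse number as a block. The libraries of a number come from 1 mouse. Their deviations from the group means correlated at r = 0.129 to 0.645 across genes, against -0.376 to 0.304 between mice, and 8 of 10 mice correlated best with their own number. The highest correlation of log2 CPM between any 2 libraries was 0.988, so none was a repeat. Printed CPM values are TMM-scaled, and log2 CPM adds 0.1. The SE is the log2 fold change over the root of the F statistic. The floor of 3 counts covers counting error only.

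Named were members past an adjusted p of 0.05 and the 5 lowest p in each direction for the LNA, the 5 highest and 5 lowest called for polysome against total RNA in GFP LNA livers, the 3 lowest p in each direction of the interaction, the member with most counts per subfamily, the 5 largest SDs, the neighbours of the CPM rule, and pathway genes past the threshold, some of which are not reported here. Gsto1, Gstm5, Gstm6, Gstm7, Gsta2, Sult1a1, Ugt1a5 and the summed features were also named after their values were seen. Protein comparisons were not made here. The members, lists and tests were chosen with earlier results of these data known. The fits were tested on simulated data.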

Additional observations from a re-analysis of the deposited data

Results flagged for a closer look

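In 119 groups of 5 values of the 30 named members, 11 had a highest or lowest library set apart (Dixon's criterion). The gap was more than 0.71 of the group's range, which chance gives in about 1 in 20 independent groups. That rate cannot weigh the 11, since some members were named for their large SD and both RNAs come from the same mice. Mouse 9 accounted for 4: Gstp2 at 12.4 CPM (next 6.89) in total RNA, Sult1c2 at 9.75 CPM (next 4.17) and Ugt1a9 at 153 CPM (next 71.6) in polysome RNA, and Ugt1a6a low at 49.0 CPM (next 67.4) in total RNA. Sult5a1 was high in mouse 1, at 10.6 CPM (next 5.36) in total and 15.0 CPM (next 9.09) in polysome RNA, and in mouse 12, at 18.6 CPM (next 11.7) in polysome RNA. Gsta1 was at 16.7 CPM (next 7.16) in total RNA of mouse 6. In the Ugt1a locus Ugt1a8 was at 145 CPM (next 33.4) in total RNA of mouse 11, Ugt1a7c at 0.773 CPM (next 0.212) in polysome RNA of mouse 11, and Ugt1a10 at 6.29 CPM in polysome RNA of mouse 8, with the others of its group at 0.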

How the results depend on the processing

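For the SNORA73 LNA 0 members were called in either RNA under limma-voom, library totals, DESeq2's size factors in edgeR, the stricter filter and each single mouse left out. The exceptions were 1 higher in total RNA without mice 9 and 10, beside 76 of all genes, and some calls in polysome RNA. There 2 were lower with DESeq2, beside 50 of all genes. Gsta1 was lower with no filter beyond 1 count, beside 6 of all genes, and with a single fit and replicate block, beside 67. The interaction gave 1 lower with DESeq2 (Ugt1a10, at 0 in most polysome libraries), beside 2 of all genes. For polysome against total RNA the replicate block gave 21 higher and 17 lower in GFP LNA livers (47.7% and 38.6% of members, background 32.3% and 30.7%). In SNORA73 LNA livers it gave 10 higher (background 24.0%). With the block, 18 were higher without mouse 9 and 6 without mouse 10, beside 3836 and 2378 of all genes. Leaving out 1 mouse gave 5 to 10 higher in GFP LNA livers, beside 2739 to 3174 of all genes. The median over members there was 0.11, and 0.17 with library totals, 0.18 with the stricter filter and 0.00760 without one. Over all genes the median was 0.03, 0.08, 0.03 and -0.19 in the same order. In SNORA73 LNA livers the members' median was 0.0181, and -0.0776 without a filter and -0.0851 with the block and without mouse 10. Over all genes these were 0.03, -0.11 and 0.00315. The UGT median for the LNA in total RNA was -0.13 with library totals, beside -0.14 over all genes. Reversed were Ugt1a8 in total RNA (-0.0929 with limma-voom and -0.0984 with the single fit and replicate block), and, with mice left out, Ugt1a8 in total RNA (-0.25 without mouse 11 to 1.57 without mice 9 and 10), Ugt1a9 in the interaction (-0.13 without mouse 11 to 0.60 without mouse 6) and Ugt1a10 in the interaction (-7.82 without mouse 2 to 0.68 without mouse 8, and 0.73 with limma-voom). The cause was not tested.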
